A study of Mus musculus with 2 samples.

Results

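Genes of inhibitory signaling by GABA in the prefrontal cortex (PFC) were compared between mice exposed to chronic mild stress (CMS) and control mice (C group). The 27 genes were listed by function, and a probe was found for all of them through RefSeq accessions, among 37069 gene names on the array. They encode subunits of the GABA-A and GABA-B receptors, enzymes and transporters for GABA, the scaffold protein gephyrin, and calcium-binding proteins and transcription factors of interneurons. Both groups were male mice of the strain labelled C57Bl/6 N sea, 9 to 10 weeks old at the start. The C group received ordinary care in group cages and no treatment, and the CMS group was housed singly and exposed to varied mild stressors for 4 weeks, so that stress and single housing cannot be told apart. Total RNA of the PFC was pooled within each group, from 7 mice per pool by the design text of the series (the methods give 10 mice per group for arrays and PCR), and each pool was hybridized to 1 single-color Agilent array. Because a group is 1 array, neither a test nor a spread between mice could be given. In bulk tissue, fewer cells of a type and less RNA per cell cannot be told apart.

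GABA is the main inhibitory transmitter of the cortex. It is made from glutamate by 2 decarboxylases, loaded into vesicles by a dedicated transporter, and released by interneurons onto GABA-A receptors, which are chloride channels built of 5 subunits, and onto GABA-B receptors, which signal through G proteins. Transporters on neurons and astrocytes then clear it, and a transaminase breaks it down. Cortical interneurons fall into classes that are known by the calcium-binding proteins and peptides they contain, and their identity is set by transcription factors during development.

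Each array held 59305 spots of 55681 probes besides controls. In the 2 pools, 65.2% and 65.9% of spots were well above background and no spot was saturated. Signals were scaled to an array mean of 2500, and the lowest signal well above background was 17.8 in the control pool and 17.6 in the CMS pool. Both arrays lay on 1 slide, at separate positions, so that array position and group cannot be told apart. The only error that these arrays give is that between spots of 1 probe on the same array. The SD of the log2 ratio between such spots was 0.25 for probes with a signal up to 100, 0.13 from 100 to 300, 0.08 from 300 to 1000, 0.06 from 1000 to 3000, 0.05 from 3000 to 10000 and 0.04 above 10000. It leaves out the differences between mice, between RNA preparations and between arrays.

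None of the 24 genes with a measurable signal, among the 27, differed by as much as 1.5-fold between the pools. Of the 24 genes that were well above background, all of them in both pools, 0 were past 2-fold in either direction, against 2.52% of the 27098 gene names with a ratio (1.96% higher in CMS and 0.565% lower). Likewise 0 were past 1.5-fold, against 5.73% of all gene names (3.66% higher and 2.08% lower). A smaller limit, a log2 ratio of 0.32 in size, was passed by Calb2 alone, which was lower. It was passed by 14.8% of all gene names (7.26% lower and 7.59% higher), a larger share than 1 gene of 24. These shares were not matched for signal. With the probe used, the 24 genes had signals of 118.9 or more in both pools. The median over all probes, detected or not, was 64.7 in control and 66.2 in CMS mice. The error between spots is largest at low signals, so the smaller share among the listed genes cannot be read as stability of these genes. Without scaling between the arrays 7 of the genes were lower by this limit. The median log2 ratio of CMS over control was -0.04 over the 24 genes, and they ran from -0.39 to 0.25. Over all gene names the median was -0.03, with quartiles at -0.13 and 0.07.

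**Figure D1:**
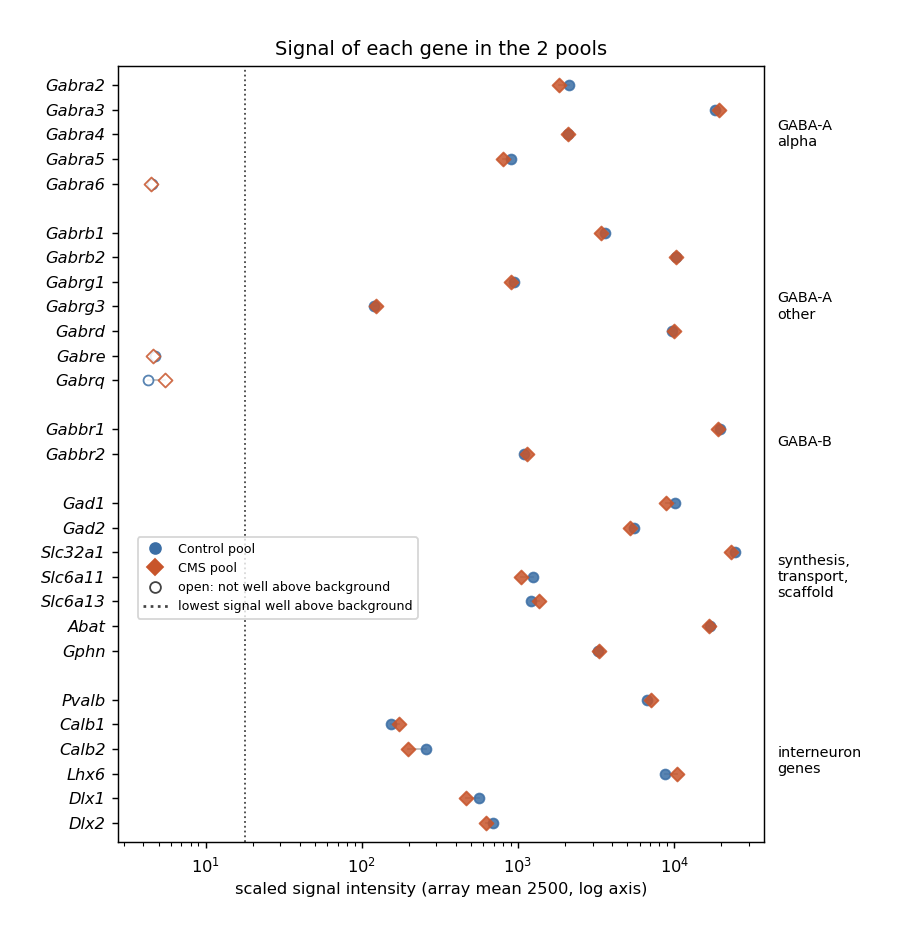
Scaled signal of the probe used for each of the 27 genes in the control pool (circles) and the CMS pool (diamonds), on a log axis. Open symbols mark Gabra6, Gabre and Gabrq, which lay left of the dotted line at the lowest signal well above background, and for the others the symbols of both pools lie close together.

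Smaller differences were set against the error between spots. Beyond 2 such SDs from the median of all gene names, at the SD of the probe's own signal range, lay 4 of the 24 genes on the higher side and 5 on the lower side. Among the 25442 gene names well above background in both pools, 10.8% lay as far on the higher side and 9.88% on the lower side. The shares among the listed genes, 4 and 5 of 24, are larger than these, and the difference was not tested. These shares too were not matched for signal. The SD between spots is smallest at high signals and leaves out differences between arrays. The larger shares therefore cannot be read as a trait of the listed genes. The 4 higher genes were Lhx6, Slc6a13, Gabra3 and Pvalb. The 5 lower genes were Calb2, Dlx1, Slc6a11, Gad1 and Gabra2. All 9 stayed on their side of the all-gene median under the 12 other ways of processing tried, although without scaling, which lowers all ratios, Gabra3, Slc6a13 and Pvalb fell below 0.

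**Figure D2:**
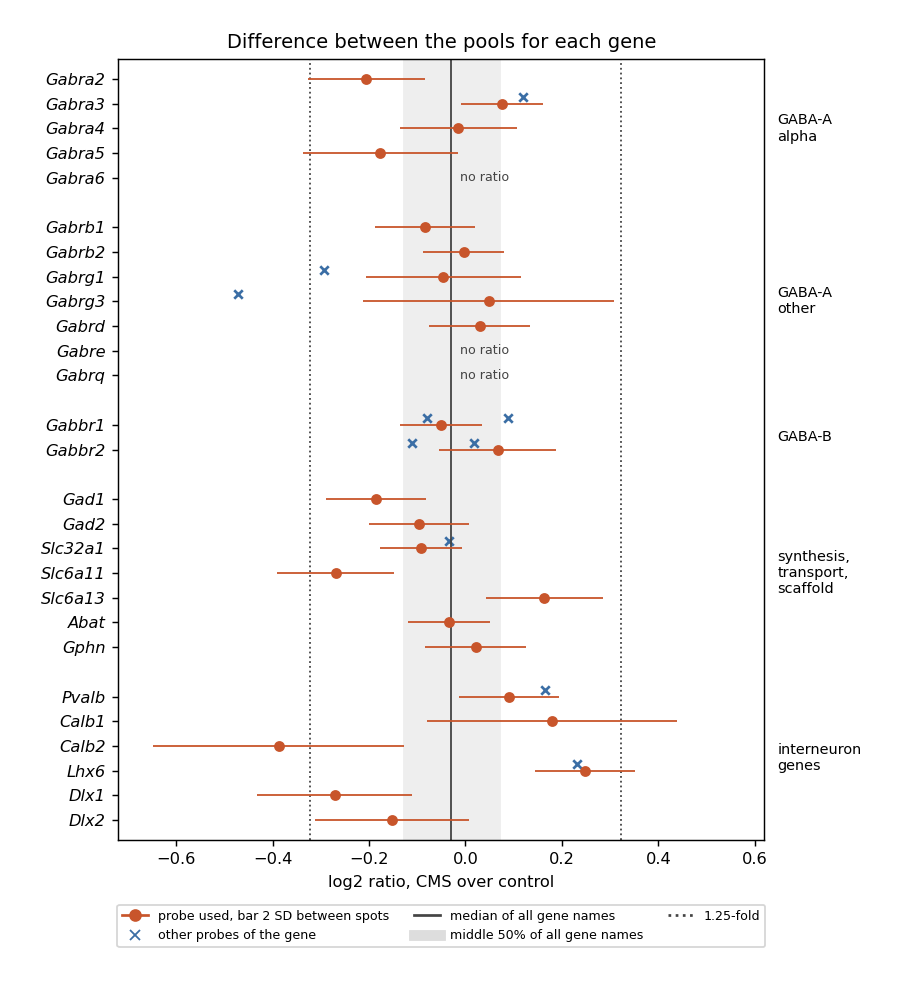
Log2 ratio of CMS over control for each gene, with a bar of 2 SD between spots at the probe's signal. Crosses are other probes of the same gene, the line and gray band are the median and middle 50% of all gene names, and the dotted lines lie at a log2 ratio of 0.32 in size, which only Calb2 passed with the probe used.

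The alpha subunits of the GABA-A receptor carry part of the GABA binding site and set where in the cell the receptor is found. Gabra2 encodes a subunit of synaptic receptors and is the alpha subunit that differed most. Its signal was 2111 in control and 1830 in CMS mice, a log2 ratio of -0.21, or 1.15-fold lower. The probe of Gabra5, a subunit of receptors outside synapses, gave 901 and 798, a log2 ratio of -0.18. That difference was within 2 SD of the all-gene median. Gabra3 went the other way, from 18266 to 19260, a log2 ratio of 0.08, and its second probe gave 0.12. Gabra4, which also forms receptors outside synapses, had 2102 and 2080, a log2 ratio of -0.02. Gabra6, best known from granule cells of the cerebellum, was not well above background in either pool, with signals of 4.54 and 4.45, and no ratio was taken.

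The other GABA-A subunits stayed closer together. Over the 5 with a ratio, the median was 0.00 and the range ran from -0.08 to 0.05. Gabrb1 and Gabrb2 encode beta subunits, which complete the binding site. Gabrb1 had 3586 in control and 3385 in CMS mice, a log2 ratio of -0.08, and Gabrb2 had 10246 and 10218, a log2 ratio of 0.00. Gabrd encodes the delta subunit of receptors that respond to ambient GABA. It had 9720 and 9919, a log2 ratio of 0.03.

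The gamma subunits showed how far probes of 1 gene can part. Gabrg1 was read by a probe with many spots, and over the 9 spots kept on both arrays the log2 ratio averaged -0.03 ± 0.12 (SD between spots), with 5 spots below 0. From spot to spot the signal ran from 810 to 990 in the C group and from 810 to 965 in the CMS group, so the pools overlapped. Its second, dimmer probe gave -0.29. For Gabrg3 the probe used had 119 and 123, a log2 ratio of 0.05, while a dimmer probe, with 32 and 23, gave -0.47, which at that signal was within 2 SD of the all-gene median. Taking the mean over probes moved Gabrg1 to -0.17 and Gabrg3 to -0.21. Gabre and Gabrq, the epsilon and theta subunits, were not well above background in either pool. Their signals were 4.73 and 4.58 for Gabre, and 4.25 and 5.49 for Gabrq.

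Several of these subunits lie side by side in the genome. In the order of protein-coding genes in RefSeq, Gabra2 is next to Gabrg1, Gabra4 next to Gabrb1, Gabrg3 next to Gabra5, Gabra3 next to Gabrq, and Gabra6 next to Gabrb2. Within these pairs the log2 ratios were -0.21 for Gabra2 and -0.05 for Gabrg1, -0.02 for Gabra4 and -0.08 for Gabrb1, and 0.05 for Gabrg3 and -0.18 for Gabra5. Gabrq was below background next to Gabra3 at 0.08. Gabra6 was below background beside Gabrb2 at 0.00. Dlx1 and Dlx2, described further on, are also neighbors, and both were lower in the CMS pool.

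Both subunits of the GABA-B receptor, which work only as a pair, were measured by 3 probes each. Gabbr1, which binds GABA, had 19657 in control and 18980 in CMS mice, a log2 ratio of -0.05. Its other probes gave -0.08 and 0.09. Gabbr2, which couples to the G protein, had 1089 and 1140, a log2 ratio of 0.07, and its other probes gave 0.02 and -0.11. The probes of each gene thus lay on both sides of 0, and neither gene was beyond 2 SD of the all-gene median.

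Genes for making and packing GABA had lower signals in the CMS pool, by small amounts. Gad1, which encodes the decarboxylase that supplies most GABA, went from 10086 to 8873, a log2 ratio of -0.18, or 1.14-fold lower, with 16.5% of all gene names lower still. Gad2, the synaptic decarboxylase, had 5534 and 5179, a log2 ratio of -0.10, which was within 2 SD of the all-gene median. Slc32a1 encodes the vesicular transporter. It had 24524 and 22993, a log2 ratio of -0.09, and its second probe gave -0.03, and it too was within 2 SD. All 3 genes lay below 0 under all 12 other ways of processing. Relative to the all-gene median Gad2 came to 0.00 at its highest, while Gad1 stayed between -0.16 and -0.12.

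The transporters that take GABA back up differed in direction. Slc6a11, the transporter GAT3 of astrocytes, lay farthest below the all-gene median in SDs. Its signal was 1254 in control and 1041 in CMS mice, a log2 ratio of -0.27, or 17.0% lower. Slc6a13, the transporter GAT2, which is found in the meninges and also in liver and kidney, had 1217 and 1362, a log2 ratio of 0.16, or 1.12-fold higher. Abat, the transaminase that breaks GABA down, had 17001 and 16604, a log2 ratio of -0.03. Gphn, which encodes gephyrin and anchors GABA-A and glycine receptors at the synapse, had 3255 and 3303, a log2 ratio of 0.02. Over the 7 genes of synthesis, transport, breakdown and scaffold, the median was -0.09 and 5 of them lay below the all-gene median.

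Among the interneuron genes, some were lower and others higher. Calb2 encodes calretinin, the calcium-binding protein of a class of cortical interneurons and of many cells of the olfactory bulb. It had 257 in control and 197 in CMS mice, a log2 ratio of -0.39, or 1.31-fold lower, and 5.18% of all gene names were lower still. With normexp background correction and quantile normalization together, its log2 ratio was -0.30, inside the limit of 0.32. Dlx1 and Dlx2 encode homeobox factors that direct the forebrain's inhibitory neurons. Dlx1 had 561 and 464, a log2 ratio of -0.27, and Dlx2 had 696 and 626, a log2 ratio of -0.15. Only the first was beyond 2 SD.

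Lhx6 and Pvalb lay on the other side. Lhx6 encodes the factor that marks interneurons born in the medial ganglionic eminence, which later contain parvalbumin or somatostatin. It had 8741 in control and 10382 in CMS mice, a log2 ratio of 0.25, or 1.19-fold higher, which was 5.37 SD above the all-gene median and the farthest of the 24 genes in either direction. A second probe, with 253 and 297, gave 0.23, and the remaining probe, for another transcript of the gene, was not well above background in either pool. Pvalb encodes parvalbumin. It had 6689 and 7122, a log2 ratio of 0.09, and its second probe, with 1906 and 2137, gave 0.17. Calb1, calbindin, had 154 and 174, a log2 ratio of 0.18, which at this low signal was within 2 SD.

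The promoters of 5 of the genes whose pools differed by more than 2 SD, or whose neighbor did, are shown for reference, so that the sequence in front of the lower genes Slc6a11, Gad1, Dlx1 and Dlx2 can be read beside that of the higher gene Lhx6. Each is the 250 bases before the transcription start in RefSeq (GRCm38.p6), 5′ to 3′ on the strand of the gene, and for Lhx6 the start farthest upstream of 3 was taken. Capitals mark the GC box GGGCGG and the letters TATAAA of the TATA box, or their reverse complements.
Slc6a11 (chr6:114130991-114131240, plus strand): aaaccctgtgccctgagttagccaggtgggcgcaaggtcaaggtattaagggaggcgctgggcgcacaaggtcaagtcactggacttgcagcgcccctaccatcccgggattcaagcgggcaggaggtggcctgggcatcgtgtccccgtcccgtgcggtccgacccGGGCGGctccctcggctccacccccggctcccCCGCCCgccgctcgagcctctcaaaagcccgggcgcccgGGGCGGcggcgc
Gad1 (chr2:70561879-70562128, plus strand): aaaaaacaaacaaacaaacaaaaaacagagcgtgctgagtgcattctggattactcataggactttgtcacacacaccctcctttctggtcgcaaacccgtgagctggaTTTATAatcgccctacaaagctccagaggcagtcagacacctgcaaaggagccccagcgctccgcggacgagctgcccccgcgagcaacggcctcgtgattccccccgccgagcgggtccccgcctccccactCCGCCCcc
Dlx1 (chr2:71529195-71529444, plus strand): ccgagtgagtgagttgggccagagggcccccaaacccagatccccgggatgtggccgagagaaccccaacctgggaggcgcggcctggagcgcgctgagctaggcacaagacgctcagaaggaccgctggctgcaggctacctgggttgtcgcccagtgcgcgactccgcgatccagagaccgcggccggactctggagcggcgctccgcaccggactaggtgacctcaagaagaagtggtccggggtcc
Dlx2 (chr2:71546755-71547004, minus strand): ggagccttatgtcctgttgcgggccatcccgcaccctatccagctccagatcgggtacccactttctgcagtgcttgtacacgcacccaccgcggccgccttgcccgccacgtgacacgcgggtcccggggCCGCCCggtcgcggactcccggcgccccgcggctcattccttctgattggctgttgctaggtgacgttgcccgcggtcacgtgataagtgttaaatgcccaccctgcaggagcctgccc
Lhx6 (chr2:36105409-36105658, minus strand): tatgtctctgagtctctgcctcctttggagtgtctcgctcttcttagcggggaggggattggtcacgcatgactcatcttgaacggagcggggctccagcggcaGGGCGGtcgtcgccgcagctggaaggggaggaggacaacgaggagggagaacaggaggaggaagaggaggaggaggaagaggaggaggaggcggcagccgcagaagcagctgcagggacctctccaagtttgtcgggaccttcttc
The Slc6a11 promoter held 3 GC boxes, that of Gad1 held both motifs, those of Dlx2 and Lhx6 each held 1 GC box, and that of Dlx1 held neither motif. Promoters were found for 23 of the 27 genes, those of Calb1, Calb2, Gabrd and Abat not being among them, with 32 start sites in all. A GC box lay in 15 of these 32 windows, against 32.7% of all 32851 promoters, TATAAA in 4, against 12.4%, and the homeobox motif TAATTA in 1, that of Gabrg1, against 4.84%. The median number of CG pairs was 12 per window for the listed genes and 6 for all promoters. Both strands were searched, and TAATTA can share its last letters with TATAAA. A match describes the letters and is no proof of a site. Genes with a GC box were found on both sides, among them Lhx6, which was higher, and Slc6a11, which was lower.

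Other genes of GABA signaling, and other genes of cortical interneurons, were taken from 5 lists of 67 genes, of which 62 had a ratio. The interneuron list holds 30 of the 67. Their median log2 ratio was -0.01, 0 of them were past 2-fold, 0 were past 1.5-fold higher and 1 was past 1.5-fold lower. The shares of all gene names were 2.52% past 2-fold, 3.66% past 1.5-fold higher and 2.08% past 1.5-fold lower. The gene past 1.5-fold lower, Gabrp, which is named because of its value, was well above background in the C pool alone. Its signal was 26.7 there and 16.7 in the CMS pool, and it was at least 1.52-fold lower. Past a log2 ratio of 0.32 in size, 4 of the 62 were higher and 2 lower, against 7.59% and 7.26% of all gene names. They too are named for their values. The higher ones were Slc6a12 at 0.39, Htr3a and Adarb2 at 0.36 each and Maf at 0.32, and the lower ones were Gabrp and Reln, at -0.40. Htr3a, Adarb2, Maf and Reln are from the list of cortical interneuron genes. Adarb2, with 25.5 in control and 32.7 in CMS mice, and Reln, with 54.7 and 41.4, were dim. At such signals the SD between spots was 0.25, and both genes were within 2 SD of the all-gene median. Slc6a12 and Htr3a, at an SD of 0.13, and Maf, at an SD of 0.08, were beyond 2 SD. The GABA-A subunits outside the 27 genes, 6 of 7 of them with a ratio, had a median of -0.01. The 18 genes of receptor anchoring and trafficking had a median of -0.02, with Gabarapl1 at -0.03 and Kif5a at -0.02. The 4 KCTD genes, whose proteins attach to GABA-B receptors, had a median of -0.01, with Kctd12 at 0.01 and Kctd16 at 0.10. The 8 genes of GABA and chloride transport had a median of 0.00, with Slc12a5, the chloride exporter of mature neurons, at -0.01 and Glul at 0.03.

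In the list of cortical interneuron genes, 26 of the 30 genes had a ratio, and their median was -0.01, with 13 of the 26 below 0. Sst, the peptide somatostatin, had 17954 in control and 18186 in CMS mice, a log2 ratio of 0.02. Vip, the peptide of another interneuron class, had 2973 and 3026, a log2 ratio of 0.03. Cnr1, the cannabinoid receptor found on cholecystokinin interneurons, had -0.07. Both peptides differed by less than Lhx6 or Calb2 did.

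**Figure D3:**
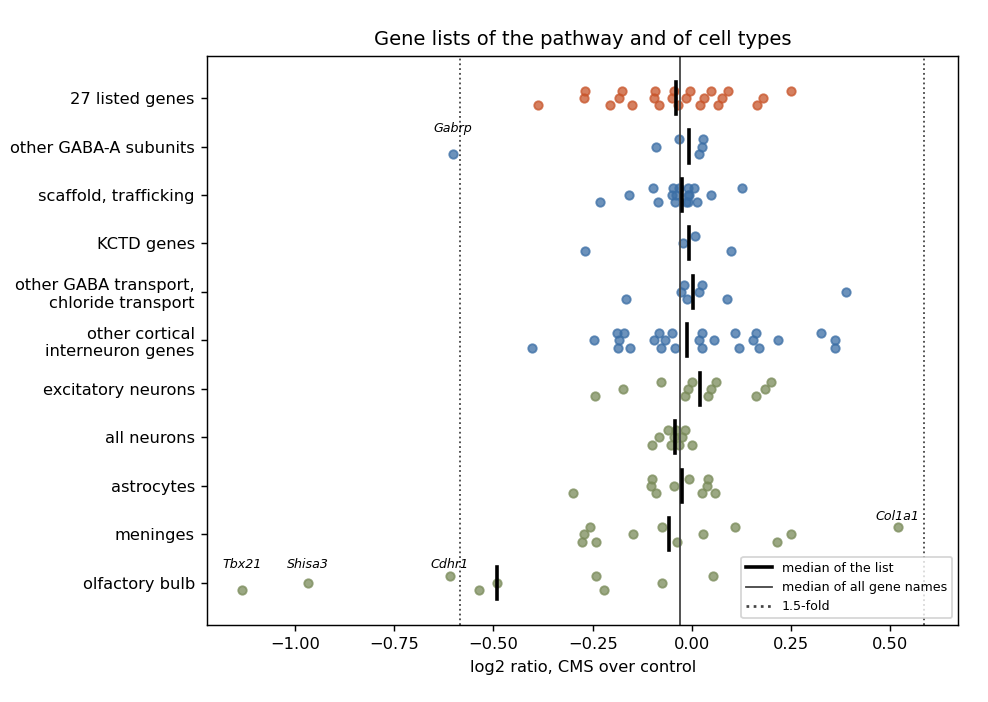
Log2 ratio of CMS over control for single genes (dots) of the 27 listed genes, of the other pathway lists and of cell type lists, with the median of each list (thick bar), the median of all gene names (line) and 1.5-fold (dotted). The olfactory bulb markers lie to the left of the other lists with a median of -0.49; Gabrp is a bound, and the hepatocyte markers, with a median of 3.13, are off the scale and left out.

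Markers of cells and regions that a dissected PFC could hold were examined as well. All 12 markers of excitatory cortical neurons, the main cells of the labelled tissue, were well above background in both pools, with a median of 0.02. Among them Slc17a7 was at 0.20, Neurod6 at 0.05, Tbr1 at -0.01 and Camk2a at 0.18. General neuronal genes had a median of -0.04 (Syt1 -0.04, Eno2 -0.06). Gapdh had a log2 ratio of 0.04.

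Markers of the olfactory bulb, which lies next to the frontal cortex and is rich in inhibitory cells, were lower in the CMS pool. Of the 10 names listed, 1 is an older name of another, and all 9 genes were well above background in both pools. Their median log2 ratio was -0.49, their summed signal was 19797 in control and 17420 in CMS mice, and 8 of the 9 were below 0. Relative to all gene names the median was -0.46, and -0.27 when normexp background correction and quantile normalization were both applied. The 3 past 1.5-fold, all lower, were Tbx21, Cdhr1 and Shisa3. Tbx21, a factor of the bulb's mitral and tufted cells, had 382 in control and 174 in CMS mice, a log2 ratio of -1.13. Cdhr1, a cadherin-related protein of the same cells, had 1830 and 1199, a log2 ratio of -0.61, and Shisa3 had 69.4 and 35.5, a log2 ratio of -0.97. Th, which cells of the bulb share with fibers and cells elsewhere, had 0.05, and Etv1 had -0.07. None of the markers was at background in either pool. Calb2, Dlx1, Dlx2 and Gad1 are also known from interneurons of the bulb and are named here because they were lower in the same pool. The choice thus went by direction, and listed genes that were higher may be known from the bulb as well. Of the 6 listed calcium-binding proteins and transcription factors of interneurons, 3 lay below 0 (Calb2, Dlx1 and Dlx2) and 3 above. Those above were Lhx6 at 0.25, Calb1 at 0.18 and Pvalb at 0.09. The part of olfactory bulb tissue in the ratios of the listed genes and of the bulb markers was not tested.

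Markers of the liver moved far more, in the other direction. All 20 hepatocyte markers were well above background in both pools and past 1.5-fold higher in the CMS pool, with a median log2 ratio of 3.13, a range from 0.74 to 3.57 (Alb 3.53, Ahsg 3.38) and a summed signal of 7205 in control and 64308 in CMS mice. Of the 27 genes, Slc6a13 and Abat are also known from liver, and they had log2 ratios of 0.16 and -0.03. The meninges are a further known source of Slc6a13. Their 12 markers had a median of -0.06 and summed signals of 9896 in control and 9708 in CMS mice, with Slc13a4 at -0.15 and Col1a2 at -0.04. The highest, Col1a1, was at 0.52. The parts of liver RNA, of meninges and of any other source in the ratio of Slc6a13 were not tested. For Slc6a11, the 10 astrocyte markers had a median of -0.03, with Slc1a3 at -0.09 and S100b at 0.06. The lowest of them, Gfap, was at -0.30 and so below Slc6a11 at -0.27.

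The remaining lists lay nearer to 0. Striatal projection neurons, which use GABA as well, had a median of -0.04 over 12 markers, with Penk at -0.28 and Foxp1 at 0.04. Drd2, seen in the CMS pool alone, had 19.0 in control and 32.9 in CMS mice, or 1.73-fold higher. Cerebellar markers other than the listed genes had a median of -0.13 over 9, with Zic1 at -0.25 and Barhl1 at -0.13. Ppp1r17, seen in the control pool alone, was at least 1.44-fold lower. Thalamic markers other than the listed genes had a median of 0.00 over 8, with Rora at -0.02 and Tnnt1 at 0.12. Gbx2, like Drd2 seen in the CMS pool alone, was at least 2.38-fold higher, and Ptpn3, also dim, was at -0.50. Oligodendrocyte markers had a median of -0.15 (Ermn 0.05), those of microglia 0.05 (Cx3cr1 0.16, Csf1r 0.05) and those of brain endothelium -0.02 (Flt1 0.02, Ly6c1 -0.12). Choroid plexus markers had a median of 0.11 when Ttr, which the liver makes too and which stood at 3.38, was left out. Among them Aqp1 was at 0.08, F5, also made by liver, at 0.75, and the dim Sostdc1 at -0.56.

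**Figure D4:**
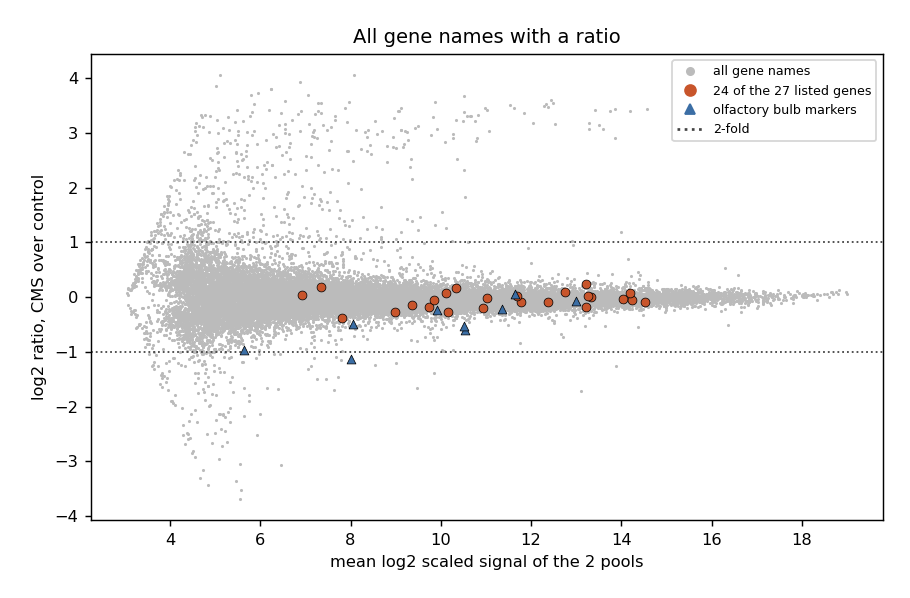
Log2 ratio of CMS over control against the mean log2 signal of the 2 pools for all 27098 gene names with a ratio (gray), the 24 listed genes that have one (circles) and olfactory bulb markers (triangles). The listed genes all lie inside 2-fold (dotted), and the spread of all names widens toward low signals.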

How the data were processed

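The 27 genes, the other lists and the folds were chosen with earlier results of these data known. Per the labels and methods, total RNA of the PFC was pooled by group, labelled with Cy3 and hybridized to Agilent SurePrint G3 mouse arrays, and the scans were read with Agilent Feature Extraction 10.10.1.1. The authors deposited processed intensity values that the software had background-subtracted and spatially detrended, with no scaling between arrays, and flags for each spot. A table of scaled intensities was deposited as well, for which the methods state an average of 2500. Set against the scanner values, it is these multiplied by 1.80 in control and 2.05 in CMS mice, with medians of 149 and 153. Its scale is linear, its values are not centered, and its mean is about 2500 after the lowest and highest 2% are left out, a step not given in the sources used here.

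Here control spots and outlier spots (130 and 133) were left out, spots of 1 probe averaged, and arrays scaled to a mean of 2500. A probe counted as detected (well above background) if a share of 0.5 or more of its spots carried that flag. For a probe detected on 1 array only, a dim value under the lowest detected signal was raised to it, and the fold is a bound. A dim value that already exceeded that signal was kept, and the fold is the measured one. Probes detected on neither array got no ratio. Accessions were named without versions through RefSeq (GRCm38.p6), which gave a symbol to 30740 of the spots, and each gene was read from its brightest probe by mean log2 signal. The SD between spots came from 297 probes with at least 5 spots, in signal ranges set after the data were seen. Named were the 27 genes and, of the lists, the 2 brightest genes, those past 1.5-fold and detected in both pools (the hepatocyte markers by count and range), Gapdh, Sst, Vip and defining markers of cortex. Some genes that this rule names are not reported here. Gfap, Col1a1, Drd2, Gbx2, Ppp1r17, Ptpn3 and Sostdc1 were added for their values. Normexp with quantile normalization, an alternative, used median spot intensities. The ratio code was tested on simulated arrays. Probe levels of different genes were not compared. The number of arrays limits the precision. Python 3.11.15, numpy 2.4.6, pandas 2.3.3, R 4.3.3 and limma 3.58.1 were used. Behavior, PCR, blots and serum were not analysed here.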

Additional observations from a re-analysis of the deposited data

How the results depend on the processing

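No paired analysis was possible because each group has 1 array, and for the same reason no array could be left out. The 12 alternatives were scaling to the 75th percentile, the median or a trimmed mean, no scaling, quantile normalization, normexp with quantile normalization, the deposited table, no bound, only probes detected on both arrays, all probes without a filter, keeping outlier spots, and averaging all probes of a gene. The counts of listed genes past 2-fold and past 1.5-fold were 0 under all of them. The count lower by more than 0.32 (log2), 1 in the text, was 7 with no scaling, which shifts the median of all gene names by -0.17 by construction, and 0 under normexp with quantile normalization. The count higher by that limit, 0 in the text, was 1 with no filter, where Gabrq, below background in both pools, enters.

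List medians were compared relative to the median of all gene names, against the error that the SD between spots, 0.12, gives a median. Under normexp with quantile normalization they moved for olfactory bulb (-0.27, in the text's setting -0.46), hepatocytes (2.64, from 3.17), choroid plexus (0.072), meninges (0.029) and thalamus (-0.044). After averaging all probes they moved for the beta to theta subunits (-0.053), olfactory bulb (-0.39), cerebellum (-0.071), striatum (-0.081) and thalamus (-0.12). With no filter they moved for thalamus (-0.059) and cerebellum (-0.045), and with probes detected on both arrays for thalamus (-0.053) and choroid plexus (0.13). All other list medians stayed within that error. Of the single ratios of the 24 genes, all 24 moved without scaling, 4 under normexp with quantile normalization and 3 when probes were averaged, by more than the SD at their signal, and 0 under the other alternatives. The causes of these moves were not tested unless stated. Signal over background limits Calb1, Calb2 and Gabrg3 most.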
